A study of Mus musculus with 12 samples.

Results

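The LINE-1 (L1) subfamilies named L1MA, L1MB, L1MC, L1MD and L1ME are the old layers of L1 in the mouse genome. They were taken here as all repeat entries of the family L1 whose subfamily name begins with L1M followed by a capital letter from A to E. This gave 161333 genomic copies in 60 subfamilies, out of 5138235 repeat copies in 1554 subfamilies. L1MA held 9 subfamilies with 35900 copies, L1MB held 7 with 30190, L1MC held 11 with 38046, L1MD held 6 with 18335 and L1ME held 27 with 38862. The rule used names alone and no measured value.

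L1 is a retrotransposon that copies itself through an RNA. An intact element encodes ORF1p, an RNA-binding protein, and ORF2p, which carries the endonuclease and reverse transcriptase that write a new copy into the genome. Copies of the old subfamilies are decayed and mostly truncated fragments that no longer move, and many lie inside genes, where they are transcribed as part of a host transcript. The young mouse subfamilies L1Md_T, L1Md_A and L1Md_Gf still hold active elements, and in male germ cells they are repressed by piRNAs and DNA methylation. Maelstrom, the product of Mael, is a protein of this piRNA pathway.

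The data come from total RNA and ribosome-protected fragments of C57BL/6 testes taken at postnatal day 16, from Mael-/- animals and their Mael+/- controls. There were 3 RNA and 3 footprint libraries per genotype, described as biological replicates, and an RNA and a footprint library of the same genotype and number came from the same testis extract. The controls carried a Mael null allele themselves, so wild-type testes were not measured. Gene counts summed to between 13697267 and 27462358 per RNA library and between 7609932 and 13233565 per footprint library. The old L1 copies held 16649 to 26637 counts per RNA library and 7625 to 15117 per footprint library. Mael had 5045, 4314 and 3800 RNA counts in the Mael+/- libraries and 1, 2 and 0 in the Mael-/- libraries. Its footprint counts were 1294, 660 and 863 against 0, 0 and 7.

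Whole testis is a mixture of cells, in which fewer cells of a type and less RNA per cell cannot be told apart. Markers of Sertoli cells, spermatogonia, meiotic prophase and Leydig cells had counts for every gene of their lists in all 12 libraries, and macrophage markers did for the 3 of 4 genes present in the table. A single Mael+/- extract stood apart. Its summed level over 12 markers of pachytene spermatocytes, 4 of which were at 0 in some library, was 843 CPM in RNA (CPM being counts scaled to the gene counts of the library, in parts per 1000000). The other Mael+/- RNA libraries had 304 and 329, and the Mael-/- libraries 246 to 282. In footprints the same extract had 997, against 289 and 355 in the other controls and 254 to 296 in Mael-/-. Its meiotic prophase sum was also the highest, at 1866 in RNA and 2655 in footprints, against at most 1157 and 1310 elsewhere. It is called Mael+/- extract 1 below, and values without one of its libraries are given beside the results that these libraries moved.

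Counts from the old subfamilies were thin and spread over many places. Only 25258 copies, or 15.7%, had at least 1 count in any library, compared with 18.2% of all repeat copies. Of these, 38.5% had a single count in total. At the other end, 180 copies reached 100 counts, and 1416 copies together held 50% of all 193204 counts. The most abundant copy held 1.72% of them. The 1599 copies counted in all 6 RNA libraries carried 54.4% of the RNA counts, and the 736 counted in all 6 footprint libraries carried 34.4% of the footprint counts.

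Across subfamilies, the total count followed the number of copies. The correlation of the log10 RNA total with the log10 number of copies was r = 0.95 over the 60 subfamilies (Spearman's rho = 0.93), and r = 0.95 for footprints (rho = 0.95). These points share libraries, and repeat lengths were not used here, so the sums are totals over copies and not levels per length. L1MEg1, with 92 copies, had 73 RNA counts, whereas L1MA4, with 7450 copies, had 4386. The share of copies with a count ran from 13.4% in L1MA to 18.7% in L1MB. RNA counts per 1000 copies were lowest in L1MA at 590 and highest in L1MB at 991. Footprint counts per 1000 copies were again lowest in L1MA at 302 and highest in L1MB at 521.

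The first question was whether the old subfamilies changed in RNA when Mael was lost. Summed over all copies, they had 1156, 749 and 940 CPM in the Mael+/- libraries and 1205, 893 and 835 CPM in the Mael-/- libraries. The ranges overlapped almost fully. The means were 948 ± 204 and 978 ± 199 CPM (SD, n = 3 each). The log2 fold change of Mael-/- over Mael+/- was 0.04 (SE 0.17, 95% interval -0.34 to 0.43; edgeR quasi-likelihood test, adjusted p = 0.992). Scaled to the repeats in place of the genes it was -0.06, and with each RNA library left out in turn it ran from -0.13 without Mael-/- replicate 1 to 0.21 without Mael+/- replicate 1.

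Young L1 RNA in the same libraries gave the scale of the difference. L1Md_T, L1Md_A and L1Md_Gf together had 132, 84.7 and 102 CPM in Mael+/- and 850, 730 and 505 CPM in Mael-/- RNA. Every Mael-/- library was above every control. The log2 fold change was 2.71 (SE 0.21, 95% interval 2.24 to 3.18; edgeR, adjusted p = 0.000894). Within each library, the log2 ratio of old to young L1 counts was 3.13, 3.14 and 3.20 in Mael+/- and 0.50, 0.29 and 0.73 in Mael-/-. The ratio differed by -2.65, with no overlap between genotypes (exact two-sided permutation test, p = 0.1, the smallest that 3 against 3 allow; 0.3 adjusted over the 12 ratios computed).

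**Figure D1:**
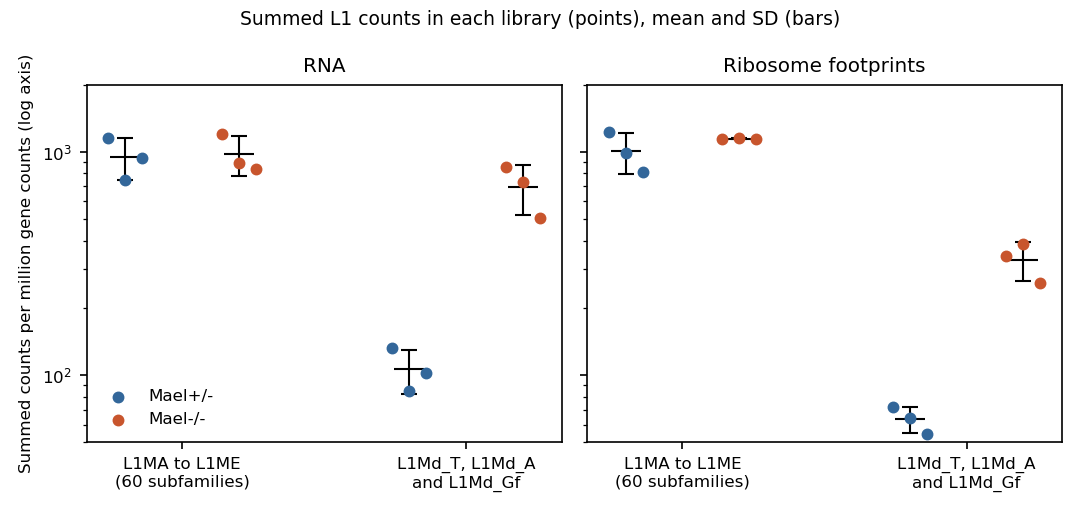
Summed CPM (log axis) of the 60 old subfamilies and of L1Md_T, L1Md_A and L1Md_Gf, in RNA (left) and ribosome footprints (right). Points are libraries, blue Mael+/- and orange Mael-/-, with the mean and SD of 3. The old subfamilies of both genotypes lie between 749 and 1226, whereas the young ones rise from at most 132 to at least 259.

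In footprints, the old subfamilies summed to 1226, 984 and 811 CPM in Mael+/- and to 1146, 1150 and 1138 CPM in Mael-/-. The Mael-/- values lay close together and inside the range of the controls. The means were 1007 ± 209 and 1145 ± 6.20 CPM (SD, n = 3 each). The log2 fold change was 0.18 (SE 0.14, 95% interval -0.12 to 0.49; edgeR, adjusted p = 0.998). It was 0.35 without Mael+/- extract 1 (adjusted p = 0.46) and 0.050 without Mael+/- replicate 3, the ends of the range when each footprint library was left out. Young L1 footprints were 71.8, 64.4 and 54.5 CPM against 342, 384 and 259 CPM, 2.37 higher as log2 (SE 0.16; edgeR, adjusted p = 0.00011). The log2 ratio of old to young footprints differed by -2.15, again without overlap (exact two-sided permutation test, p = 0.1; adjusted p = 0.3). Translation efficiency, the change of footprints beyond that of RNA, had a log2 value of 0.14 for the old subfamilies (SE 0.25, 95% interval -0.39 to 0.67), and was not called by edgeR. The fit took RNA and footprint libraries of the same extract as independent.

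No old subfamily passed the test for a change in RNA. Of 59 tested by edgeR, 0 had an adjusted p under 0.05, and 0 had an unadjusted p under 0.05. Over all 1114 repeat subfamilies tested, 0.898% were called and 5.57% had an unadjusted p under 0.05. The median log2 fold change was 0.04 over the old subfamilies and 0.09 over all those tested, with 39 values above 0 and 20 below. The 95% interval lay within a 2-fold change in either direction for 53 of 59. For all 59 its upper end was below 2.24, the lower end of the interval of young L1. The highest upper end was 1.11 and the lowest lower end was -1.69, in L1MEg1. When repeats were scaled to each other in place of the genes, the median moved to -0.05, with 17 of 59 above 0. The sign of the median also turned with single libraries. It was -0.15 with 6 of 59 above 0 without Mael-/- replicate 1, -0.10 with 14 of 59 without Mael+/- replicate 2, and 0.20 with 54 of 59 without Mael+/- extract 1.

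In footprints, 0 of 58 were called, against 1.82% of 1045 repeat subfamilies, and 5 had an unadjusted p under 0.05, all higher in Mael-/-. Across all subfamilies the share with an unadjusted p under 0.05 was 7.46%. The median was 0.18, beside 0.13 over all subfamilies tested, and 53 of 58 were above 0. Scaled to the repeats, 40 of 58 were above 0 and the median was 0.05. Without Mael+/- extract 1 the median was 0.37 with 57 of 58 above 0, and without Mael+/- replicate 3 it was 0.044 with 35 of 58 above 0. The interval lay within 2-fold for 51 of 58, and its upper end lay below the interval of young L1 for all 58. In translation efficiency, 0 of 60 were called by edgeR, and 1, L1MEg1, had an unadjusted p under 0.05. No repeat subfamily was called in that test, in which the background was 0% of 1148 subfamilies, with 3.05% at an unadjusted p under 0.05.

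**Figure D2:**
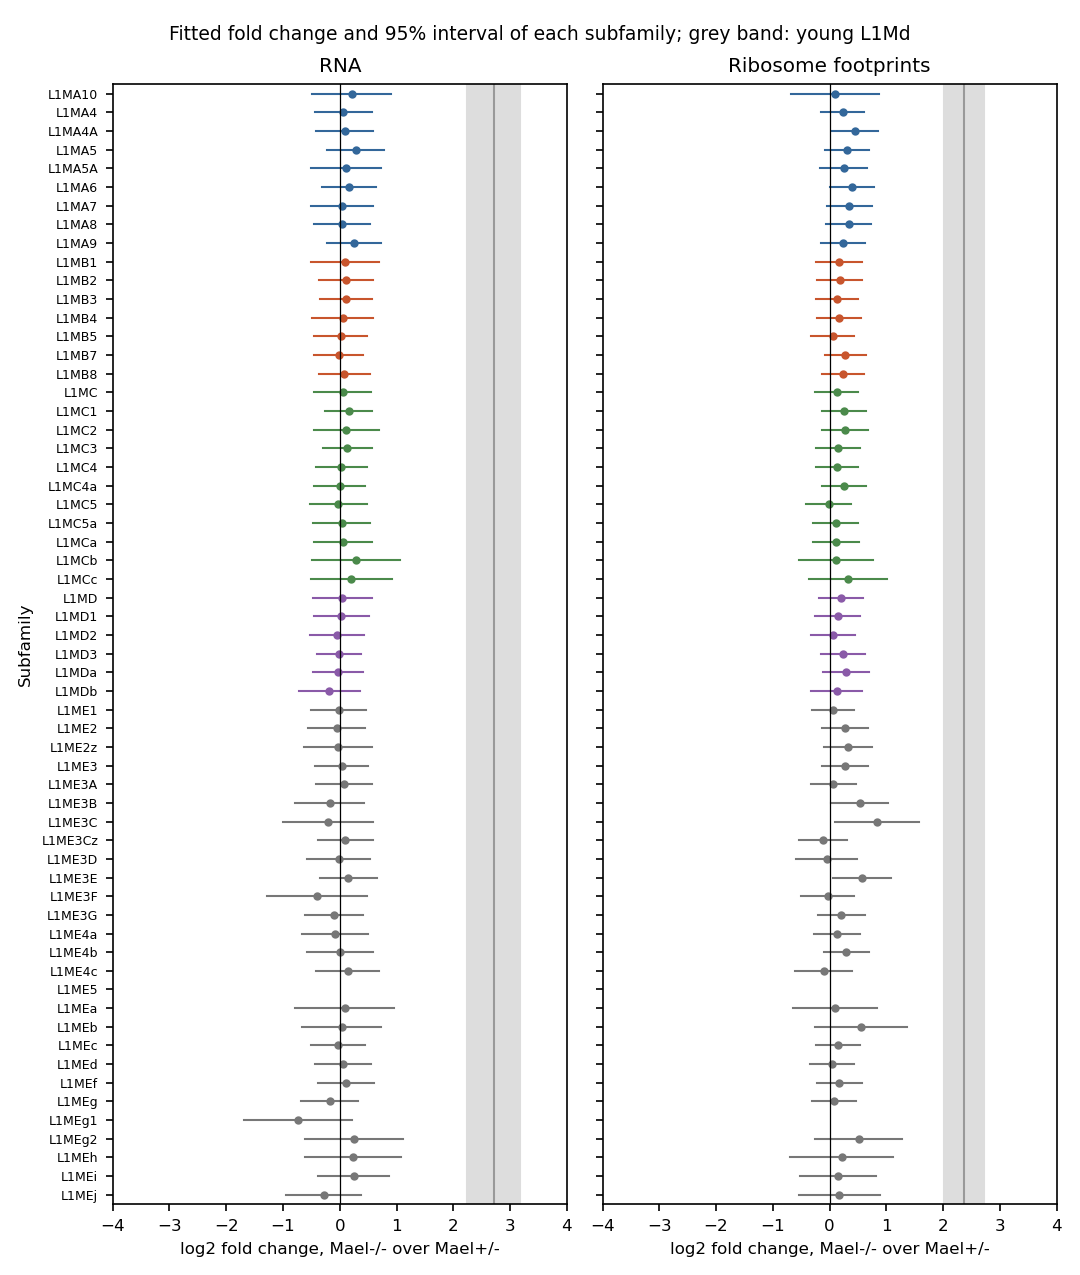
Fitted log2 fold change of Mael-/- over Mael+/- (x axis) for each old subfamily (y axis, coloured by its letter), with 95% intervals, in RNA and footprints; the grey band is the interval of young L1 and the vertical line in it its estimate. The old subfamilies lie around 0 and none of their intervals reaches the band; L1ME5 in both assays and L1MEg1 in footprints fell under the count filter and have no point.

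By letter, the log2 fold changes in RNA were 0.14 for L1MA (SE 0.19), 0.05 for L1MB (SE 0.17), 0.06 for L1MC (SE 0.17), -0.01 for L1MD (SE 0.13) and -0.02 for L1ME (SE 0.19). None was called. In footprints they were 0.31 for L1MA (SE 0.13), 0.18 for L1MB (SE 0.14), 0.15 for L1MC (SE 0.13), 0.18 for L1MD (SE 0.14) and 0.14 for L1ME (SE 0.14). L1MA had an unadjusted p of 0.0444 in edgeR, with an adjusted p of 0.998. Its footprints were 201, 155 and 134 CPM in Mael+/- and 198, 203 and 206 CPM in Mael-/-, so that only Mael+/- extract 1 was among the Mael-/- values. Without that library the difference of L1MA was 0.48 (edgeR, adjusted p = 0.119).

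The letters were also compared with one another within each library, which needs no scaling. The log2 ratio of L1MA to the other letters was -2.35, -2.41 and -2.34 in Mael+/- and -2.26, -2.22 and -2.18 in Mael-/- footprints, a difference of 0.15 without overlap. The ratio of L1ME to the other letters was lower by 0.06 on the log2 scale, also without overlap (exact two-sided permutation test, p = 0.1 for each, adjusted p = 0.4 over 10 letter ratios). In RNA the L1MA ratio differed by 0.11 and the genotypes overlapped (exact permutation test, p = 0.2, adjusted p = 0.4).

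The most abundant subfamilies of each letter showed how little the genotypes stood apart. L1MB7, the most abundant of L1MB, had 71.9, 46.7 and 60.6 CPM in Mael+/- RNA and 71.1, 52.0 and 53.5 CPM in Mael-/- RNA. Its log2 fold change was -0.02 (SE 0.21). The Mael-/- values fell inside the range of the controls. L1MC4 had 46.5, 32.5 and 38.2 CPM against 49.3, 37.4 and 32.9 CPM, and L1ME1 had 50.7, 29.0 and 38.5 CPM against 48.1, 36.1 and 32.6 CPM. Their log2 fold changes were 0.03 (SE 0.21) and -0.02 (SE 0.23). In each, the first Mael+/- library and the first Mael-/- library were the highest of their group, as they were for the sum of all old copies.

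The other subfamilies with the largest totals were L1MA4 and L1MA6 of L1MA, L1MB8, L1MC3, L1MD3 and L1MD of L1MD, and L1MEg of L1ME. Their RNA fold changes ran from -0.18 in L1MEg (SE 0.24) to 0.16 in L1MA6 (SE 0.23). In footprints the 10 ran from 0.06 in L1ME1 (SE 0.19) to 0.40 in L1MA6 (SE 0.20). L1MA6 footprints were 28.9, 22.1 and 23.2 CPM in Mael+/- and 33.0, 33.5 and 31.1 CPM in Mael-/-. All 3 Mael-/- libraries were above the controls (edgeR, adjusted p = 0.64). L1MA8, L1ME4b and L1MEb also had no overlap, so that 4 of 58 subfamilies lay entirely higher in Mael-/- footprints, against 11.4% of all subfamilies tested, and 0 lay entirely lower, against 1.72%. In RNA 0 of 59 lay entirely higher, against 9.34%, and 1 lay entirely lower, L1MEg1, against 1.8%.

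The 5 subfamilies with an unadjusted p under 0.05 in footprints were L1ME3C, L1ME3E, L1ME3B, L1MA4A and L1MA6. L1ME3C had 15, 9 and 9 footprint counts in Mael+/- and 20, 26 and 21 in Mael-/-, a log2 difference of 0.84 (SE 0.38; edgeR, adjusted p = 0.518). In CPM, a Mael-/- library at 1.52 fell below the highest control at 1.59. L1ME3E had 5.10, 2.71 and 2.34 CPM against 3.94, 5.39 and 6.04 CPM, a log2 difference of 0.58 (SE 0.26; edgeR, adjusted p = 0.52). Its highest control was again Mael+/- extract 1. Without that footprint library, 3 old subfamilies were called higher in Mael-/-, namely L1MA4A at a log2 fold change of 0.69 (edgeR, adjusted p = 0.0133), L1MA6 at 0.52 (adjusted p = 0.0445) and L1ME3E at 1.003 (adjusted p = 0.0144). In the same fit 58 old subfamilies were tested. Among all repeats, the number of called subfamilies went from 19 of 1045 in the full fit to 51, so the rise was not particular to the old subfamilies. The part of pachytene spermatocytes in this was not tested.

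The 3 old subfamilies with the smallest p in each direction in RNA were L1MA5, L1MA9 and L1MEi above 0, and L1MEg1, L1ME3F and L1MEj below it. L1MA5 had 478, 316 and 447 RNA counts in Mael+/- and 333, 385 and 457 in Mael-/-, which after scaling gave 0.28 on the log2 scale (SE 0.24). The RNA fold changes of L1MA9 and L1MEi were 0.24 (SE 0.22) and 0.24 (SE 0.30), and those of L1ME3F and L1MEj were -0.41 (SE 0.41) and -0.29 (SE 0.31). None of the 6 passed the test (edgeR, adjusted p = 0.996 for each). L1MEg1, with the fewest copies of all, had 19, 14 and 16 RNA counts in Mael+/- and 5, 6 and 13 in Mael-/-, a log2 fold change of -0.74 (SE 0.45).

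Single copies were tested beside all other repeat copies of the table. How reads that match several copies were assigned is not given in the sources used here, so a count of a single copy is less certain than a sum. In RNA, 292 old copies passed the count filter, and 0 were called by edgeR, against 1.61% of 16710 repeat copies. At an unadjusted p under 0.05 there were 12, or 4 higher and 8 lower, against 9.01% of all. In footprints 62 passed the filter and 0 were called, against 0.817% of 5511, with 6 at an unadjusted p under 0.05 against 5.33%. The tested copies are the most abundant ones and do not stand for the 161333. On simulated counts, the copy test recovered 27% of 2-fold and 87% of 4-fold changes in RNA, and 49% and 81% in footprints. The simulated spread was the same for every copy and not taken from these libraries, so recovery in the data may be lower.

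The copies with the smallest p, named after their values were seen, were both thinly counted. L1MC4_3565, a copy of L1MC4, had 27, 21 and 11 RNA counts in Mael+/- and 0, 4 and 8 in Mael-/-. The genotypes did not overlap, and the log2 fold change was -2.04 (SE 0.58; edgeR, adjusted p = 0.0866). L1MB5_2385 had 7, 6 and 3 footprint counts in Mael+/- and 28, 14 and 9 in Mael-/-, a log2 difference of 1.42 (SE 0.47; edgeR, adjusted p = 0.469). In RNA the same copy had 30, 13 and 23 counts against 10, 25 and 38, so that the genotypes overlapped there.

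A few copies were counted in one genotype alone. Among the 1933 old copies with 20 or more counts over the 12 libraries, 11 (0.569%) had counts in Mael+/- libraries and 0 in all 6 Mael-/- libraries, and 1 (0.0517%) had the opposite pattern. Over all repeats with as many counts, the shares were 0.244% and 0.241%, and over young L1Md copies they were 0% and 24.3%. Other repeat groups came nearer, at 0.778% and 0.574% for the rodent Lx subfamilies of L1 and 0.527% and 0% for DNA transposons. Since the copies were picked for this pattern, their values are a description. The count filter had left them out of the test.

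The 11 copies followed Mael+/- extract 1. L1MB5_1837 had 39, 2 and 6 RNA counts and 92, 3 and 12 footprint counts in the Mael+/- extracts, and 0 in all Mael-/- libraries. Its neighbour in the numbering of the table, L1MB5_1838, had 48, 4 and 14 RNA counts in Mael+/- and 0 in Mael-/-, with footprint counts of 89, 4 and 10 against 0, 1 and 2. L1MEd_2615 had 15, 2 and 3 RNA counts and 26, 3 and 3 footprint counts in Mael+/-. Extract 1 was the highest Mael+/- library for all 11 in both assays.

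Some of the 11 had consecutive numbers, L1MC4_1786 with L1MC4_1787, L1MEd_2614 with L1MEd_2615, and L1MEg_2993 with L1MEg_2994. Summed, the 11 copies had 159, 13 and 39 RNA counts and 238, 9 and 34 footprint counts in Mael+/-. The 0 counts in Mael-/- allow a level of up to 0.0488 CPM in RNA and 0.0948 CPM in footprints, at 3 counts over the 3 libraries, beside 6.90, 0.477 and 1.48 CPM and 25.3, 1.16 and 3.32 CPM in the controls. Extract 1 gave 80.7% of their counts, beside 31.7% of the gene counts of the controls. Its pachytene and meiotic prophase marker sums were the highest in each assay, and the part of these cells in the pattern was not tested. When extract 1 was left out, 1 of 1492 old copies and 16 of 72810 copies of all repeats met the same rule. The opposite pattern was then met by 2 old copies and 327 copies of all repeats. The 11 held 0.255% of all counts of the old subfamilies.

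**Figure D3:**
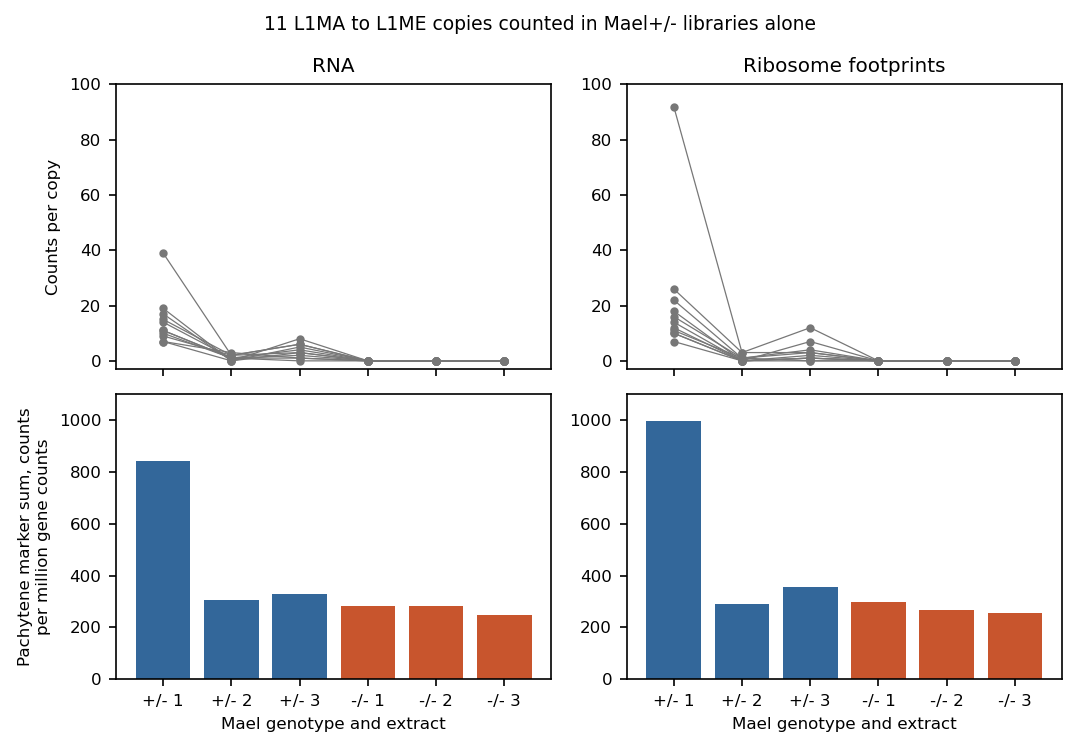
Upper panels: counts (y axis) of each of the 11 old L1 copies counted in Mael+/- libraries alone, across the 6 RNA and 6 footprint libraries (x axis: genotype and extract), 1 line per copy. Lower panels: summed CPM of 12 pachytene markers in the same libraries (blue Mael+/-, orange Mael-/-). Counts peak in Mael+/- extract 1, where the marker sum is 843 in RNA and 997 in footprints, and are 0 in all Mael-/- libraries.

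Footprints were next set against RNA of the same extracts, to compare the counts of the old subfamilies in both assays. Summed, the old subfamilies were higher in footprints by 0.17 on the log2 scale (SE 0.07; edgeR with the extract as a block, adjusted p = 0.0287). Both assays were scaled to their own gene counts, and the direction depended on this. The authors counted genes over the full mRNA in RNA but over coding sequence in footprints, so the gene counts are unlike scales. Scaled to the repeats of each assay, the value turned to -0.38 (SE 0.10; edgeR, adjusted p = 0.000288). Without the block it was 0.16 (edgeR, adjusted p = 0.252), and it ran from 0.11 without the Mael-/- replicate 3 footprints to 0.24 without the Mael+/- replicate 3 RNA. The call was lost when either library of Mael+/- replicate 2, Mael-/- replicate 2 or Mael-/- replicate 3 was left out (adjusted p = 0.113 to 0.166). Scaled to genes, the same value was 0.48 for DNA transposons (SE 0.06), 0.76 for MIR, an old family of short elements (SE 0.06), 0.83 for L2, an old LINE family (SE 0.07), 0.39 for the rodent Lx subfamilies of L1 (SE 0.06) and -0.92 for young L1 (SE 0.07). Of the 60 old subfamilies, 18 were called higher in footprints, against 52.6% of 1148 repeat subfamilies, and 2 were called lower, against 13.9%. The median was 0.17, beside 0.46 over all subfamilies. Scaled to the repeats, 3 were called higher, against 27.9% of 1156, and 41 lower, against 36.9%, with a median of -0.36. The differences of single subfamilies and copies that follow are scaled to genes.

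L1MD3 and L1MEg were the 2 called lower in footprints when scaled to genes, and the direction of L1MD3 rested on a single copy. L1MD3 had a log2 difference of -0.63 (SE 0.12; edgeR with the extract as a block, adjusted p = 2.44e-05). L1MD3_1860 alone held 58.8% of the counts of L1MD3. It had 478, 696 and 604 RNA counts in Mael+/- and 285, 422 and 655 in Mael-/-, and footprint counts of 22, 44 and 22 against 31, 42 and 27. Without this copy the difference of L1MD3 turned to 0.88 (SE 0.13; adjusted p = 2.36e-07).

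L1MEg had a log2 difference of -0.69 (SE 0.12; edgeR, adjusted p = 7.26e-06). Its most abundant copy, L1MEg_1159, had 354, 131 and 311 RNA counts in Mael+/- and 61, 183 and 258 in Mael-/-, and 0 counts in all 6 footprint libraries. The 1298 RNA counts make its level at least 185-fold higher in RNA than in footprints, with the footprints set at 3 counts over the 6 libraries. L1MEg_2679 likewise had 523 RNA counts and 0 footprint counts. Leaving out L1MEg_1159 moved the difference of L1MEg to -0.28 (adjusted p = 0.0457).

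The largest differences the other way were those of L1ME3F, L1ME5 and L1MA5A. L1ME3F had 33, 15, 53, 17, 21 and 22 counts in the 6 RNA libraries, controls first, and 60, 44, 48, 84, 55 and 36 counts in the footprints. Its log2 difference was 2.24 (SE 0.20; edgeR, adjusted p = 2.93e-12). L1ME3F_230 had 37, 32 and 28 footprint counts in Mael+/-, 52, 33 and 21 in Mael-/-, and 0 RNA counts, and without it the difference was 0.83 (adjusted p = 0.00201). L1MA5A had a difference of 0.99 (SE 0.15; adjusted p = 7.59e-07), which was 0.58 without its top copy. L1ME5 had 38 RNA counts and 47 footprint counts in all and a difference of 1.45 (SE 0.41; adjusted p = 0.00213).

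Copies seen in one assay alone were a small set. Footprint reads are shorter than RNA reads, and how either was assigned among copies is not given. Footprint counts of a copy therefore need not come from ribosomes on that copy. Of the 1933 old copies with 20 or more counts, 54 (2.79%) had footprint counts and 0 RNA counts, compared with 5.82% of all repeat copies, and 42 (2.17%) had RNA counts and 0 footprint counts, compared with 8.404%. The 54 lay in 29 subfamilies, 50 of them were counted in all 6 footprint libraries, and together they held 5.68% of the old footprints. The 42 lay in 19 subfamilies and held 2.44% of the old RNA counts. By letter, 22 of the 54 and 19 of the 42 belonged to L1ME. L1ME held 1023 of the 4242 old copies with 10 or more counts, a lower threshold than the 20 used for the 54 and 42. Its share at 20 or more counts is not given here.

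Some of the footprint copies were abundant in every footprint library. L1MB5_3457 had 72, 30 and 27 footprint counts in Mael+/- and 62, 67 and 28 in Mael-/-, and 0 RNA counts, so that it was at least 223-fold higher in footprints. L1MD3_771 had 29, 40 and 45 against 63, 40 and 51 footprint counts, also with 0 RNA counts, a ratio of 209-fold set in the same way (lower end 169). L1MB7_1370 had 33, 34 and 33 against 41, 34 and 41 footprint counts. The genotypes overlapped in CPM for the first 2 of these copies.

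The most abundant old copy in footprints, L1ME1_1978, had 88, 88 and 91 counts in Mael+/- and 104, 62 and 81 in Mael-/- footprints, beside 15 RNA counts in 6 libraries. Its level was 80.2-fold higher in footprints (95% counting interval 48.1 to 144). L1MEd_598 had 33, 26 and 47 against 72, 37 and 21 footprint counts, beside 3 RNA counts, and was 184-fold higher in footprints (95% counting interval 62.2 to 899). L1MC5a_1495 had 45, 31 and 35 against 50, 35 and 47 footprint counts, and 33, 36 and 39 against 23, 27 and 32 RNA counts. The genotypes overlapped in CPM for both copies in footprints. L1MD2_746 had 63, 2 and 20 footprint counts in Mael+/- and 1, 2 and 2 in Mael-/-, and no RNA counts. It was highest in Mael+/- extract 1, as the copies counted in Mael+/- alone were.

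**Figure D4:**
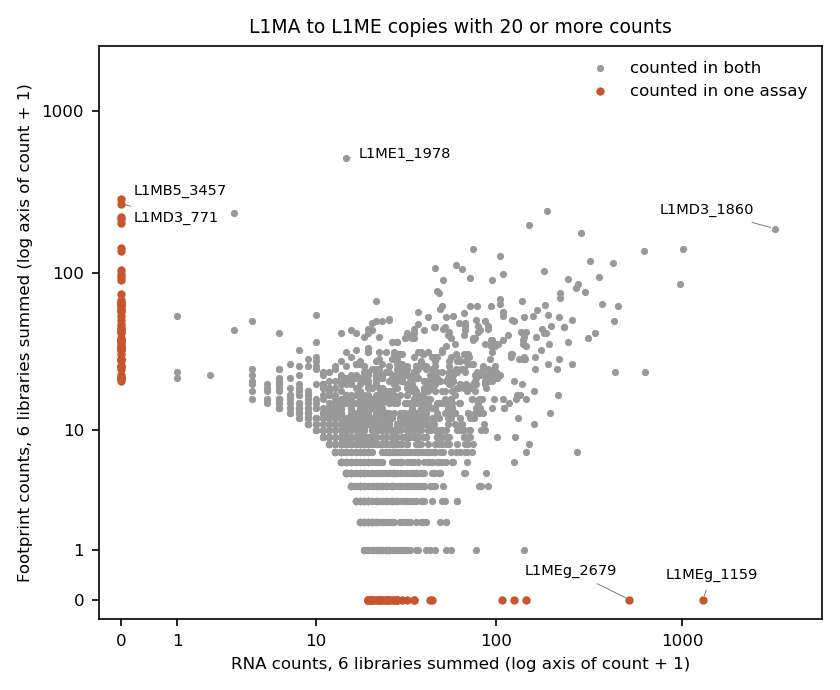
RNA counts (x axis) and footprint counts (y axis) of the 1933 old L1 copies with 20 or more counts, each summed over 6 libraries, on log axes of the count plus 1. Orange points are the 54 copies counted in footprints alone and the 42 counted in RNA alone; L1MD3_1860 has 3140 RNA and 188 footprint counts, whereas L1ME1_1978 has 15 and 514.

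Other abundant copies had footprints in smaller proportion to their RNA. L1ME1_125 had 181, 197 and 225 RNA counts in Mael+/- and 92, 118 and 197 in Mael-/-. In CPM these were 7.86, 7.22 and 8.53 against 6.66, 5.85 and 7.17, entirely lower in Mael-/-, with a log2 difference of -0.26 (SE 0.21; edgeR, adjusted p = 0.815). L1MC3_3077 had 5.21, 6.78 and 6.18 CPM against 7.38, 8.28 and 8.77 CPM, entirely higher in Mael-/-, with 0.43 (SE 0.21; adjusted p = 0.555). L1MB7_4992, L1MB8_4602 and L1MA9_581 had 637, 627 and 452 RNA counts over the 6 libraries, with RNA fold changes of -0.12 (SE 0.22), -0.09 (SE 0.23) and 0.25 (SE 0.24).

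In RNA, the sum of the old L1 copies moved from library to library with other old repeats. Over the 6 RNA libraries, the CPM of the old subfamilies and of DNA transposons, elements that move without an RNA and have long been inactive in mouse, had r = 0.99 (rho = 1; permutation p = 0.00139 for r and 0.00278 for rho, adjusted p = 0.0111 and 0.0333 over 12 relations). Without the 2 libraries farthest from the median, r was 0.99. The relation in RNA was as close with the L1M subfamilies that have a digit in place of the letter (r = 0.99, rho = 0.94, permutation p = 0.00278 and 0.0167, adjusted p = 0.0111 and 0.04; 0.98 without 2 libraries). With young L1 it was r = 0.28 (rho = 0.54, permutation p = 0.511 and 0.297), which turned to -0.67 without 2 libraries. All points share the scaling to gene counts of their library, and 3 libraries per genotype are too few for a value within each.

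In footprints the relation with DNA transposons had r = 0.99 (rho = 0.83, permutation p = 0.00694 and 0.0583, adjusted p = 0.0119 and 0.0778) and 0.94 without 2 libraries. The relations with other old repeats in footprints rested on 2 libraries each. With the L1M subfamilies that have a digit, r was 0.91 (rho = 0.89, permutation p = 0.0361 and 0.0333, adjusted p = 0.0481 and 0.0667) and 0.052 without 2 libraries. With Lx it was 0.98 (rho = 0.94, permutation p = 0.00694 and 0.0167, adjusted p = 0.0119 and 0.04) and 0.44 without 2. With MIR it was 0.94 (rho = 0.83, permutation p = 0.00694 and 0.0583, adjusted p = 0.0119 and 0.0778) and 0.58 without 2, and with L2 it was 0.87 (rho = 0.54, permutation p = 0.0556 and 0.297) and -0.32 without 2. With young L1 it was 0.59 (rho = 0.66, permutation p = 0.278 and 0.175) and 0.52 without 2. Within libraries, the log2 ratio of old L1 to DNA transposons differed between genotypes by -0.02 in RNA (exact permutation test, p = 0.8) and by 0.06 in footprints (exact permutation test, p = 0.4). The ratio of old L1 to Lx differed by -0.19 in RNA, without overlap (exact permutation test, p = 0.1, adjusted p = 0.3), and by -0.02 in footprints (exact permutation test, p = 0.6). The ratio of old L1 to the L1M subfamilies with a digit was on average 1.59 ± 0.031 in Mael+/- and 1.53 ± 0.013 in Mael-/- RNA (log2, SD, n = 3 each), a difference of -0.057 without overlap (exact permutation test, p = 0.1, adjusted p = 0.3). In footprints it differed by 0.083 (exact permutation test, p = 0.4).

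**Figure D5:**
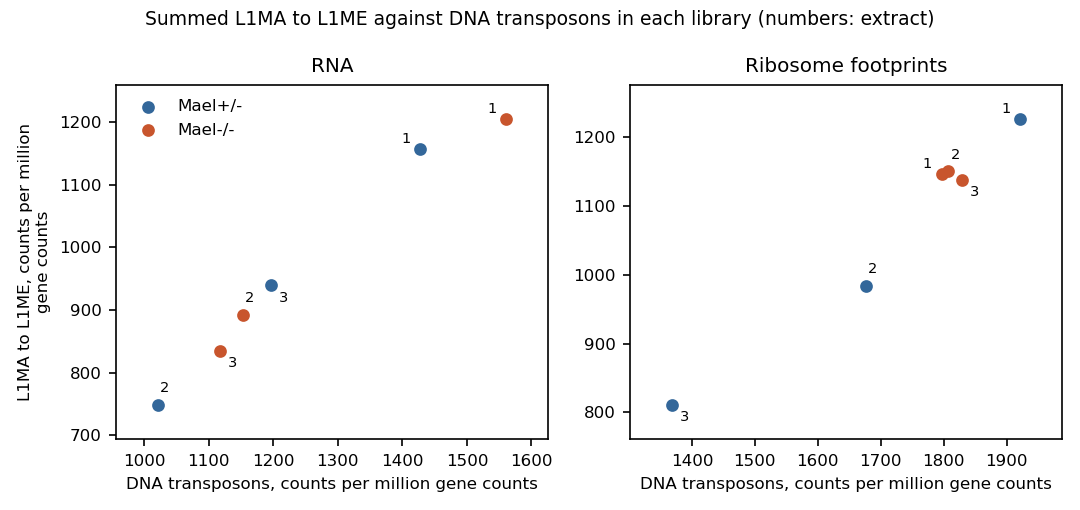
Summed old L1 subfamilies (y axis) against DNA transposons (x axis), both in CPM, in each RNA library (left) and footprint library (right); numbers give the extract, blue Mael+/- and orange Mael-/-. In RNA the points fall along one line with both genotypes mixed, and in footprints the 3 Mael-/- libraries lie together between 1138 and 1150.

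Genes known to silence L1 were read beside the repeats, from a list of 32 that spans piRNA factors, DNA methylation, chromatin repressors and host restriction factors. Of these, 31 were in the table and tested in RNA. Mael itself was the 1 gene called (log2 fold change -11.79, edgeR adjusted p = 3.35e-07), against 0.116% of 14647 genes. Mael is the disrupted gene, so its call was fixed by the genotype. Besides Mael, 7 genes of the list had an unadjusted p under 0.05, all lower in Mael-/-, against 5.39% of all genes tested. The median log2 fold change of the list was -0.09, beside -0.01 over all genes. Piwil1, a PIWI protein that binds piRNAs of later spermatocytes, is among the 7. It is also one of the 12 pachytene markers, whose sum stood apart in Mael+/- extract 1. Without the RNA library of that extract, Mael was again the 1 gene of the list called. With Mael included, 7 had an unadjusted p under 0.05, 6 of them lower, and the median was -0.07.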

How the data were processed

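The authors treated testis extracts with cycloheximide, purified total RNA from one aliquot and digested another with micrococcal nuclease for footprints. They clipped footprint reads with FASTX and removed ribosomal footprint reads with Bowtie 1.2.2. For the RNA libraries, ribosomal RNA was depleted with Ribo-Zero before sequencing. Reads of both assays were aligned to mm10 with STAR 2.6.0c and counted with featureCounts of Subread 1.6.4, taking RNA reads over the full mRNA and footprints over coding sequence. How reads that match several repeat copies were assigned, whether repeats were counted by strand, and whether duplicate reads were collapsed are not given in the sources used here. The deposited table holds whole-number counts, not normalized, for 20620 genes and 5138235 repeat copies. The deposited DESeq2 tables of the authors hold log2 fold changes and p-values and were not used. No 2 libraries held identical counts.

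Counts were summed by subfamily and tested by edgeR's quasi-likelihood method (edgeR 4.0.16, R 4.3.3), with filterByExpr, library sizes and TMM factors from the genes of the assay, and Benjamini-Hochberg adjustment over all features tested, called at 0.05. Sums over letters and repeat groups were added as rows to the genes, and single copies were tested among all repeat copies. In the footprint subfamilies edgeR fitted the same spread to every row. Translation efficiency was taken from an interaction term, genotype by assay, in a fit of the 12 libraries without the extract as a block. Footprints were set against RNA with the extract as a block, a comparison added after the data were seen. RNA and footprint libraries of the same extract deviated together, with correlations across 11297 genes of 0.793, 0.649 and 0.712 in Mael+/- and 0.26, 0.29 and 0.268 in Mael-/-. Means are ± SD. Folds against 0 counts used 3 counts summed over the libraries of the assay or group, and such limits and intervals cover counting error only.

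The subfamilies, gene lists and markers were chosen with earlier results of these data known. The text names the 2 subfamilies of each letter with the largest totals, every subfamily or copy called between genotypes, the 3 subfamilies each way with the smallest p in RNA, the 8 copies with the largest RNA and the 5 with the largest footprint totals, Mael and called silencing genes, and other examples chosen after their values were seen. On simulated counts with 200 changed features, the subfamily test recovered 85% of 2-fold and 96% of 4-fold changes in RNA and 89% and 96% in footprints. In translation efficiency it recovered 63% and 89%. Every simulated feature had the same spread, set beforehand and not taken from these libraries, so recovery in the data may be lower. Alternatives were DESeq2 1.42.0, median-of-ratios factors, scaling to repeats, other filters, the replicate number as a block, leaving out the top copy of each subfamily, and leaving out each library.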

Additional observations from a re-analysis of the deposited data

Results flagged for a closer look

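L1MEg1 was flagged because its RNA and footprints moved in opposite directions in every library. Its RNA was lower in all 3 Mael-/- libraries (0.36, 0.30 and 0.47 CPM against 0.82, 0.51 and 0.61), and its footprints were higher in all 3 (0.91, 0.90 and 0.83 CPM against 0.32, 0.13 and 0.49). The log2 change in translation efficiency was 2.17 (SE 0.71, 95% interval 0.70 to 3.65; edgeR, unadjusted p = 0.00555, adjusted p = 0.831). It rests on 73 RNA and 37 footprint counts over 92 copies, the fewest copies of any of the 60 subfamilies. The fit took RNA and footprint libraries of the same extract as independent.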

How the results depend on the processing

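The counts of 0 called subfamilies in RNA and in translation efficiency stayed at 0 under every alternative run. In footprints 0 to 3 were called when 1 library was left out, with 3 without Mael+/- replicate 1 and 0 without each other library. Without Mael+/- replicate 1, 51 subfamilies were called among all repeats, against 19 with all libraries. Called copies went from 0 to 7 without a filter in RNA and to 7 in footprints, and to 1 in RNA scaled to repeats. Leaving out a library gave 1 to 1 called copies in RNA and 0 to 2 in footprints. The RNA copy was L1MA7_92 (higher in Mael-/-) without Mael+/- replicate 1, L1MC4_3565 without Mael+/- replicate 3, and L1MB5_1838 otherwise. The footprint copies were L1MB5_1837 and L1MD2_746. L1MB5_1838 in RNA and L1MB5_1837 in footprints had 0 counts in all Mael-/- libraries, so their fold changes had no finite value. Both, and L1MD2_746, were highest in Mael+/- extract 1 and passed the count filter through Mael+/- libraries alone. Their calls are therefore a description and no support for a change. Shares called over all repeat copies in these fits are not given here. For footprints against RNA, the called differences went from 20, 18 of them higher, to 44 scaled to repeats, 3 higher and 41 lower, where the value of all old copies turned to -0.38. That value was 0.16 and not called without the replicate block, and 0.11 to 0.24 with 1 library left out. With 1 library left out 14 to 23 were called, 12 to 21 higher and 2 to 3 lower.

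No fold change between genotypes of the sums, letters or named subfamilies was called, other than the 3 footprint calls without Mael+/- replicate 1. Many of the signs were not stable. The RNA values of L1MA5, L1MA9, L1MC3, L1MEg1 and L1MEj kept their sign when a library was left out. Scaled to repeats, RNA values were -0.056 for all old copies, -0.057 for L1MB, -0.033 for L1MC, -0.032 for L1MA4, -0.029 for L1MB8, -0.079 for L1MC4 and -0.040 for the subfamily L1MD, and footprint values were -0.061 for L1ME1 and -0.042 for L1MEg. Without the top copy of each subfamily, RNA values were 0.025 for the letter L1MD, 0.0081 for L1ME, 0.12 for L1MD3 and 0.036 for L1ME1. Leaving out 1 library at a time, RNA values ran from -0.13 to 0.21 for all old copies, -0.085 to 0.31 for L1MA, -0.15 to 0.19 for L1MB, -0.10 to 0.23 for L1MC, -0.12 to 0.12 for the letter L1MD and -0.19 to 0.18 for L1ME. Among subfamilies they ran from -0.14 to 0.28 for L1MA4, -0.066 to 0.32 for L1MA6, -0.18 to 0.13 for L1MB7, -0.12 to 0.20 for L1MB8, -0.15 to 0.17 for L1MC4, -0.14 to 0.32 for L1MD, -0.039 to 0.012 for L1MD3, -0.20 to 0.20 for L1ME1, -0.79 to 0.038 for L1ME3F, -0.41 to 0.074 for L1MEg and -0.15 to 0.44 for L1MEi. In footprints the sum and the letters stayed positive. They ran from 0.050 to 0.35 for all old copies, 0.18 to 0.48 for L1MA, 0.057 to 0.37 for L1MB, 0.012 to 0.30 for L1MC, 0.011 to 0.32 for the letter L1MD and 0.0047 to 0.31 for L1ME. Footprint values that changed sign ran from -0.023 to 0.32 for L1MC3, -0.057 to 0.19 for L1ME1 and -0.057 to 0.32 for L1MEg. Translation efficiency of all old copies ran from -0.026 to 0.32. The cause of these sign changes was not tested.

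Whether numbers shared across genotypes pair the libraries is not settled here. Correlations of their deviations ran from -0.045 to 0.293 for the same number and from -0.451 to 0.430 for different numbers. Over all repeat subfamilies, the replicate block raised those called in RNA from 10 to 39. With the replicate block, 0 old subfamilies were called in either assay, and 2 silencing genes, Mael and Tdrd6, in place of 1. With the extract as a replicate block, 0 were called in translation efficiency. Splits of the copies by position in genes and the fit without copies overlapping exons were not run, since copies were identified here by number alone. Depth limits single copies most, since 161041 of the 161333 were not tested in RNA.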
